A study of Mus musculus with 10 samples.

Results

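Interferon-stimulated genes are the genes that cells switch on after an interferon binds its receptor. In type I and type III signalling, the kinases Jak1 and Tyk2 activate a complex that holds Stat2 and Irf9 and binds the interferon-stimulated response element (ISRE). Type II signalling acts through the gamma-activated site (GAS). The products detect foreign RNA, block the entry or replication of viruses, tag proteins with Isg15 and attack the vacuoles of intracellular parasites, and in kidney they are known from viral infection, lupus nephritis and transplant rejection.

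The genes described here were 37 such genes, listed by symbol and found by Ensembl identifier among the 55359 genes of the deposited table. Their transcripts were measured by sequencing poly(A) RNA from kidney tissue of mice, described as male. The IRI (ischaemia-reperfusion injury) group was 5 libraries of kidney after 30 min of ischaemia and 24 h of reperfusion, and the Sham group was 5 libraries of kidney after sham surgery. The labels used here give neither the strain, age or diet of any mouse nor the interval after sham surgery, nor do they state whether the libraries are from separate mice. The p-values therefore reflect only how far these libraries differ among themselves, which may be technical.

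Library totals ran from 13147899 to 18603272 counts. All 11 markers of kidney tissue were detected above the filter. IRI replicate 1 stood apart, since mitochondrial rRNA took 2.31% of its counts. That share lay between 0.214% and 0.45% for the remaining IRI libraries and between 0.230% and 0.267% for Sham. Levels are FPKM, which is scaled by the library total. Fold changes are log2 values of IRI over Sham from edgeR, scaled by TMM factors (which assume that most genes do not change), and a gene was called at an adjusted p under 0.05. Using library totals for the scaling raised the log2 fold changes of all genes by a median of 0.25, which matters here because most fold changes of these genes were small.

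Interferon-stimulated genes differed in how they responded. Oasl1 rose about 11-fold. The kinase gene Eif2ak2, the RNA sensor gene Ddx58 and the membrane protein genes Ifitm2 and Ifitm3 rose about 2-fold, whereas Ifi44, Igtp and Rsad2 fell. The widely used markers of interferon response Isg15, Ifit1, Ifit3, Irf7, Usp18, Oas1a and Mx1 were not called. Of 34 genes that passed the filter on low values (at least 1 FPKM in 5 libraries), 10 were higher and 3 lower in IRI, or 29.4% and 8.82%, while 34.5% of all 13324 genes tested were higher and 32.4% lower. The count of lower genes was 6 without IRI replicate 3, and it was 5 with DESeq2. Counted in either direction, 38.2% of them were called, against 66.9% of all genes tested. Their median log2 fold change was 0.14, beside 0.05 for all genes tested. Changes of 2-fold or more were called in 4 of the 34 genes upward and 1 downward. All genes tested gave 11.9% upward, close to the upward share here, and 15.0% downward. FPKM of the groups did not overlap in 14 of the 34 (41.2%), against 55.3% of all genes tested.

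With library totals, 18 were higher and 3 lower (median 0.38), against backgrounds of 47.4% and 23.6%. The 8 genes gained were Dhx58, Ifih1, Ifit1, Isg15, Parp9, Trim25, Xaf1 and Ifi27, each with a positive estimate under both scalings, so their call depends on the scaling. The 13 genes called with TMM factors were also called with library totals, in the same direction. In bulk kidney tissue, fewer cells of a type and less RNA per cell cannot be told apart. The 3 genes below the filter were Oas2, Mx1 and Mx2. Fitted with no filter, all 37 gave 10 higher and 3 lower, where 19.3% and 18.0% of all 30454 genes with a count were higher and lower.

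**Figure D1:**
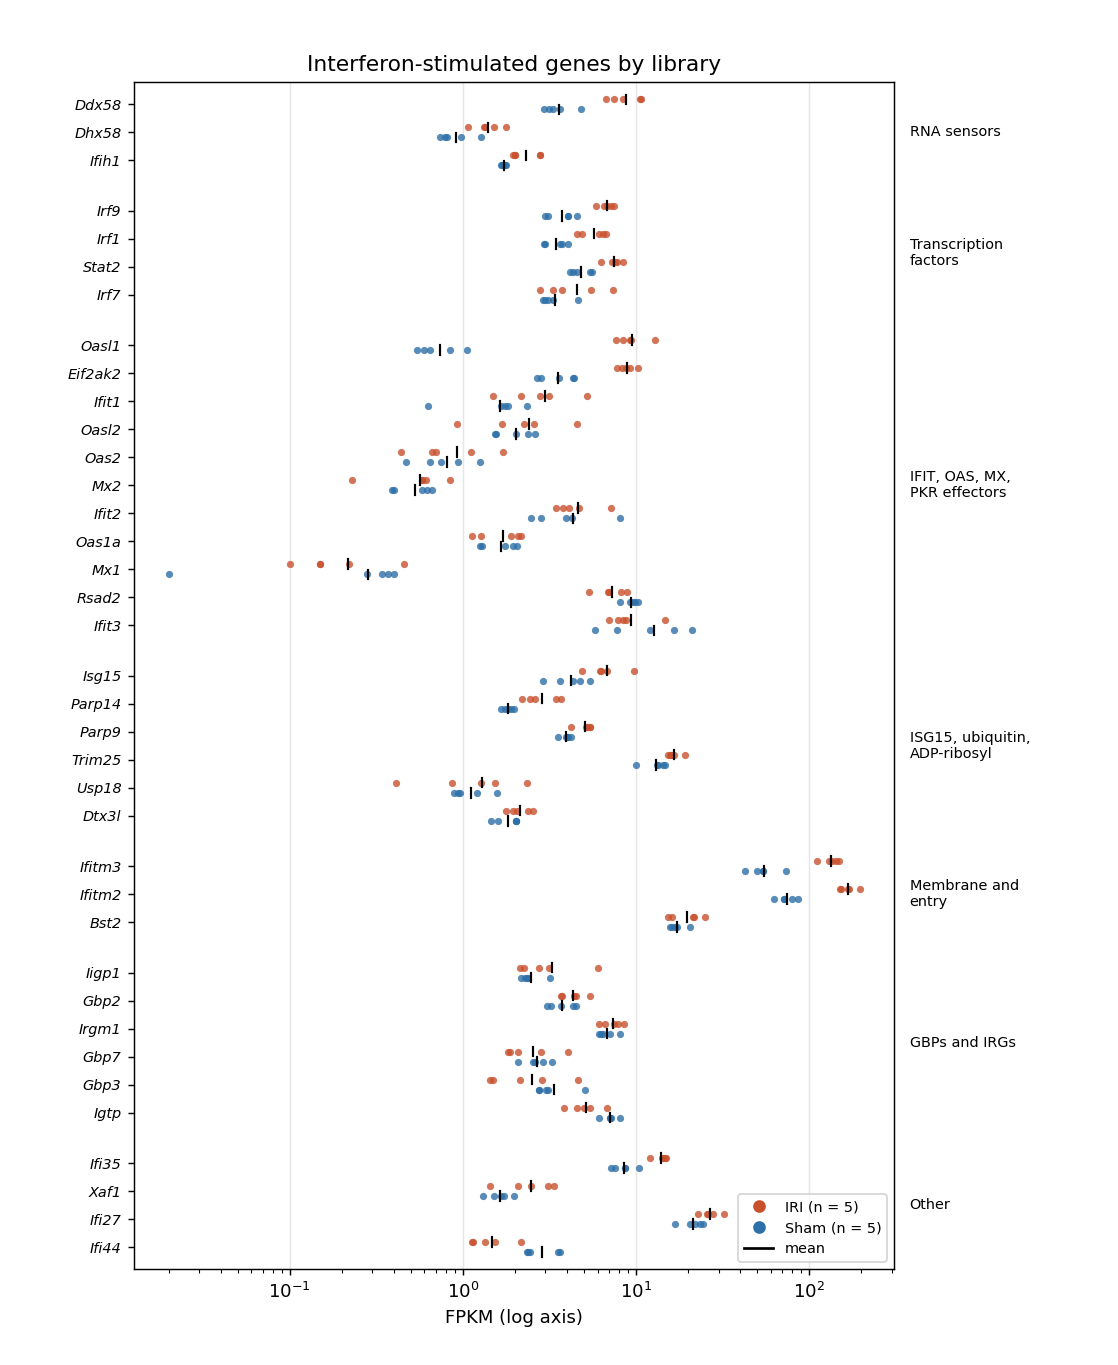
FPKM of each of the 37 interferon-stimulated genes in every library, on a log axis, with the IRI libraries (red) above the Sham libraries (blue) and a black bar at each group mean. Oasl1 shows the widest gap between the groups, while most antiviral effector genes overlap, and Ifitm2 and Ifitm3 lie highest.

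The promoters of the genes are shown for what they share. Neither motif was searched to choose the genes, but they were listed as interferon-stimulated, and interferon signalling acts through these elements. A high share of genes with a motif is therefore not an independent result. RefSeq promoters of build GRCm38.p6, from 250 bases before to 50 after the transcription start, were found for 28 of the 37 genes. The ISRE core was searched as GAAANNGAAA and the GAS as TTCNNNGAA, on both strands, with overlapping matches counted. Of the 28 genes, 17 (60.7%) had an ISRE core in a promoter, against 3.99% of all 27025 genes with a promoter, and 9 (32.1%) had a GAS, against 9.55% of all those genes. Counted by promoter, 3.44% of all 32851 promoters held an ISRE core and 8.30% a GAS. By response, an ISRE core stood in 5 of the 9 higher genes with a promoter, 2 of the 3 lower ones and 10 of the 16 not called. A match is a description of the letters and not evidence of binding.

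The promoters of Oasl1 and Isg15 are given whole because they contrast in both exact motif matches and response. That of Oasl1, the gene of largest rise, held no exact match to either motif. It does hold near matches, for example tttcagttta, which differs from an ISRE core on the other strand in its last base only. Such near matches were not counted in any promoter. That of Isg15, not called, held 3 overlapping ISRE cores starting at -78, -72 and -66 from the transcription start. Capitals mark the motif matches, and both promoters read in the direction of transcription, from chr5:114922990-114923289 (plus strand) and chr4:156200769-156201068 (minus strand).
Oasl1: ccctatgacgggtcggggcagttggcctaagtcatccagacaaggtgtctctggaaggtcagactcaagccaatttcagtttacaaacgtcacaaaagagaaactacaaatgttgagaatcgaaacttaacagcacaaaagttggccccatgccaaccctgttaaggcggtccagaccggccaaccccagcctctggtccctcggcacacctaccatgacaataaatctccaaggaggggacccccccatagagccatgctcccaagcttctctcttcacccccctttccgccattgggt
Isg15: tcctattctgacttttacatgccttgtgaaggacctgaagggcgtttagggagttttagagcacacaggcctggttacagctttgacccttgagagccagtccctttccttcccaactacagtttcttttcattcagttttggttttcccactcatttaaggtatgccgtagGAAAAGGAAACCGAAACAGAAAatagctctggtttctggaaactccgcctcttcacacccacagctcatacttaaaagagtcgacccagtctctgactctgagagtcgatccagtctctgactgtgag

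A single match from each of 11 other genes is given with 10 bases on either side, motif in capitals, so that the letters around the matches can be read for genes that moved differently. The likeness of the cores themselves was set by the search. The first 4 lines are ISRE cores of genes that rose and the next 2 are GAS of genes that rose. They are followed by ISRE cores of 2 genes that fell and of 3 that were not called.
Ddx58: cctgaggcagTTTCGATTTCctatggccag
Eif2ak2: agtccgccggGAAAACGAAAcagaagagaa
Ifitm2: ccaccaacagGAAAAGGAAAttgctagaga
Stat2: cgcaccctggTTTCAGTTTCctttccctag
Irf1: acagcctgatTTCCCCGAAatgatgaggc
Ifi35: agaagcagaaTTCACAGAAatgaaagtgg
Igtp: tctaggaactGAAACTGAAAgctgttcggg
Rsad2: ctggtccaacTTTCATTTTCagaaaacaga
Ifit1: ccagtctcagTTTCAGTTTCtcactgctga
Ifit3: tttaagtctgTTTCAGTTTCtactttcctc
Gbp2: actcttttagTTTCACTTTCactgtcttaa

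Among the 3 RNA sensors, only Ddx58 was called, where 66.9% of all genes tested were called. Ddx58 encodes RIG-I, which binds RNA with a triphosphate end and signals through Mavs. Its FPKM was 6.69, 7.50, 10.61, 8.43 and 10.63 in IRI replicates 1 to 5, against 2.95, 3.32, 4.81, 3.16 and 3.63 in Sham replicates 1 to 5. Every IRI library lay above every Sham library (log2 fold change 1.04 ± 0.15 SE, adjusted p = 5.99e-05). Ifih1, which encodes MDA5, the sensor of long double-stranded RNA, had 1.95, 2.00, 2.80, 2.01 and 2.79 FPKM in IRI, against 1.78, 1.76, 1.67, 1.69 and 1.70 FPKM in Sham. These values did not overlap either, yet the TMM-scaled change was 0.17 ± 0.12 (adjusted p = 0.233), and with library totals it was 0.43 (adjusted p = 0.0116). Dhx58, which encodes LGP2, a regulator of both sensors, had 1.07, 1.35, 1.77, 1.33 and 1.51 FPKM in IRI, against 0.74, 0.79, 0.97, 0.81 and 1.27 FPKM in Sham. The groups overlapped through Sham replicate 5 (0.36 ± 0.19, adjusted p = 0.122), and without that library Dhx58 was called at 0.52 (adjusted p = 0.0264).

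Of the 4 transcription factors, Irf9, Irf1 and Stat2 rose modestly and Irf7 was not called, where 34.5% of all genes tested were higher. Irf9, the DNA-binding part of the complex with Stat2, had 7.45, 6.79, 7.20, 5.85 and 6.53 FPKM in IRI, against 3.10, 4.03, 2.99, 4.04 and 4.59 FPKM in Sham. The groups did not overlap (0.60 ± 0.14, adjusted p = 0.00256). Stat2 had 7.75, 8.39, 7.29, 6.25 and 7.57 FPKM in IRI, against 4.17, 5.46, 4.30, 4.56 and 5.60 FPKM in Sham, again with no overlap (0.38 ± 0.12, adjusted p = 0.0160). Irf1, a factor that interferon gamma and NF-kB signalling both induce, had 4.55, 6.75, 6.12, 4.89 and 6.41 FPKM in IRI, against 3.00, 3.64, 4.03, 2.94 and 3.73 FPKM in Sham (0.47 ± 0.13, adjusted p = 0.00706). Irf7, which amplifies type I interferon production, had 3.30, 2.80, 7.36, 3.74 and 5.52 FPKM in IRI, against 2.91, 3.10, 2.99, 3.31 and 4.61 FPKM in Sham. The groups overlapped and IRI replicate 3 was the highest library (0.17 ± 0.24, adjusted p = 0.551). Irf7 shares its locus with Phrf1 on the opposite strand, and the sources used here do not say whether counting used strand.

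The antiviral effectors held both the gene of largest rise and 1 of the 3 genes that fell. Oasl1 belongs to the oligoadenylate synthetase family but lacks synthetase activity, and in mice it is known to repress translation of Irf7 mRNA. Its FPKM was 8.37, 9.24, 7.64, 9.36 and 12.92 in IRI, against 0.54, 0.60, 0.84, 1.05 and 0.65 in Sham. The lowest IRI library was about 7 times the highest Sham library, and the log2 fold change was 3.44 ± 0.20 (adjusted p = 1.04e-07), with 127 of all genes tested rising by more. Oasl1 lies on chromosome 5 from 115061299 to 115075974 in the deposited GRCm39 coordinates. Gm13822, which overlaps it on the opposite strand, had 23 counts in all IRI libraries and 23 in all Sham libraries.

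Its neighbour Oasl2, from 115034997 to 115050295, did not follow. Oasl2 had 2.26, 0.92, 4.56, 1.68 and 2.57 FPKM in IRI, against 1.54, 2.37, 2.02, 1.56 and 2.62 FPKM in Sham. IRI replicates 3 and 2 were the highest and lowest of all libraries, and the estimate was near 0 with a 95% interval of -0.74 to 0.74 (adjusted p = 0.998). The related Oas1a (1.71 ± 0.477 FPKM in IRI and 1.66 ± 0.373 in Sham, SD, n = 5 each) and Oas2 (0.924 ± 0.502 in IRI and 0.812 ± 0.298 in Sham), whose products make the activator of RNase L, were not called either.

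Eif2ak2 encodes PKR, the double-stranded RNA kinase that stops translation through eIF2. It had 8.76, 7.74, 9.29, 8.30 and 10.21 FPKM in IRI, against 3.57, 4.41, 4.30, 2.67 and 2.81 FPKM in Sham, with no overlap (1.07 ± 0.15, adjusted p = 5.56e-05). Rsad2, which encodes viperin, an enzyme that makes a chain-terminating nucleotide, had 5.36, 6.90, 8.92, 7.00 and 8.24 FPKM in IRI, against 8.07, 9.21, 10.22, 9.61 and 9.87 FPKM in Sham. Rsad2 fell (-0.62 ± 0.11, adjusted p = 0.000414), although IRI replicates 3 and 5 exceeded the lowest Sham library in FPKM, and with library totals the change was -0.37 (adjusted p = 0.0224).

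Ifit1, Ifit2 and Ifit3, antiviral effector genes of the IFIT family, lie close together on chromosome 19 and were not called. Ifit1 had 2.97 ± 1.41 FPKM in IRI and 1.64 ± 0.623 in Sham (0.61 ± 0.36, adjusted p = 0.152), Ifit2 had 4.64 ± 1.49 in IRI and 4.32 ± 2.23 in Sham (-0.14 ± 0.30), and Ifit3 had 9.37 ± 3.07 in IRI and 12.6 ± 6.26 in Sham (-0.67 ± 0.32, adjusted p = 0.0825). Ifit2 and Ifit3 were both highest in Sham replicate 3, at 8.08 and 20.95 FPKM. Ifit3 was called lower without IRI replicate 3 (-0.89, adjusted p = 0.0286) and without Sham replicate 2 (-0.83, adjusted p = 0.0216). The near-identical copy Ifit3b, which can share reads with Ifit3, had 2.34 ± 0.888 FPKM in IRI and 3.50 ± 1.32 in Sham and was called lower (-0.83 ± 0.30, adjusted p = 0.0271), but not with library totals (-0.58, adjusted p = 0.106). The dynamin-like GTPase genes Mx1 and Mx2 were below the filter, at 0.216 ± 0.143 and 0.568 ± 0.218 FPKM in IRI and 0.282 ± 0.153 and 0.530 ± 0.126 FPKM in Sham.

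**Figure D2:**
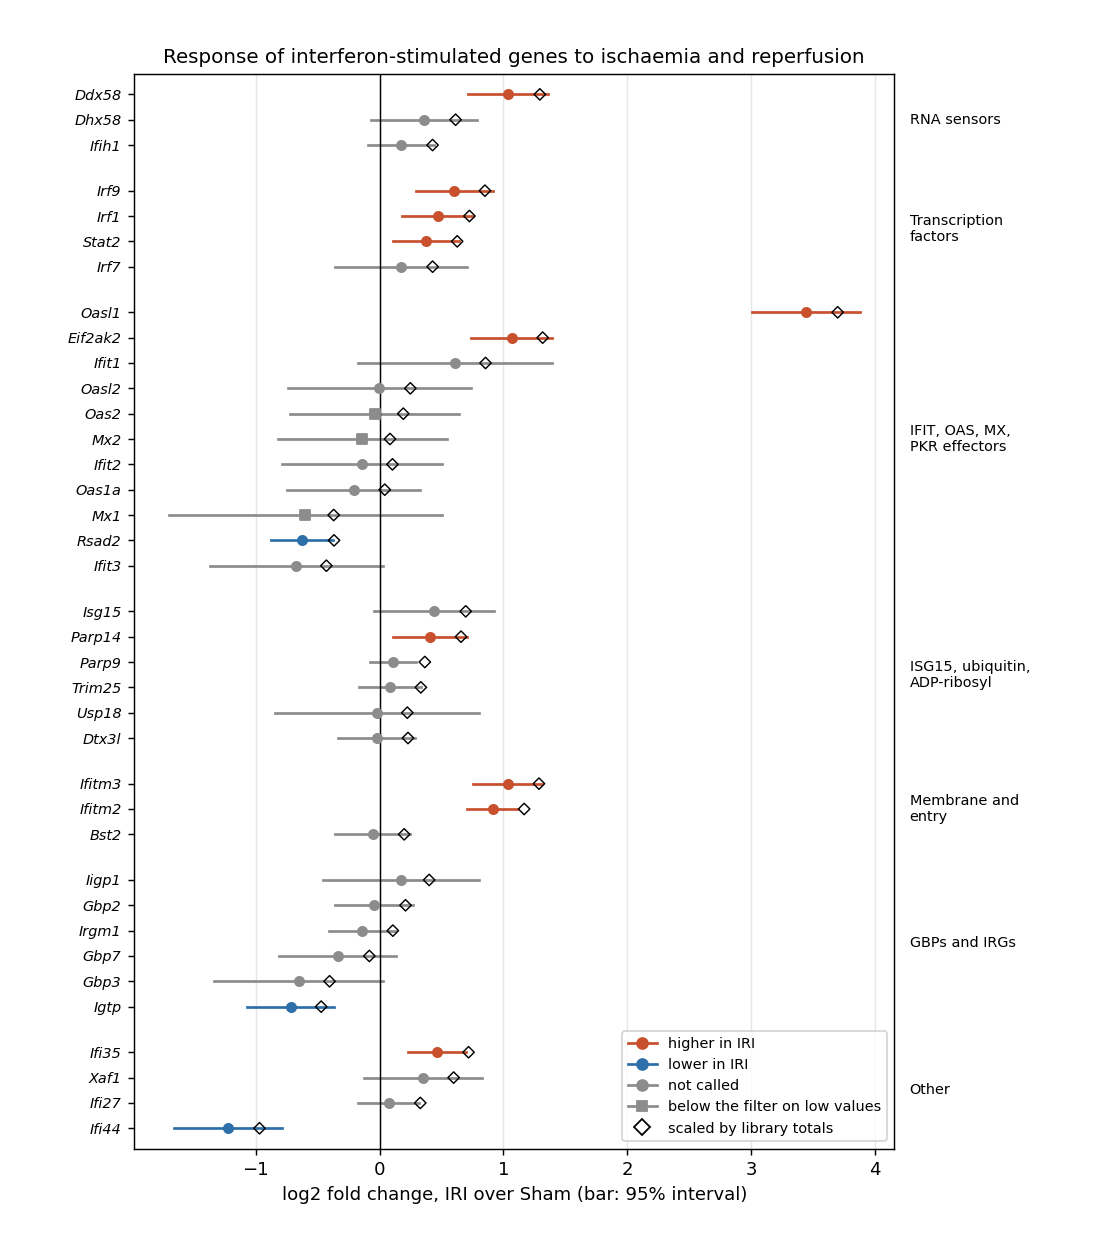
Log2 fold change of IRI over Sham with its 95% interval for each gene, by role, from edgeR with TMM factors (red higher, blue lower, grey not called, squares below the filter) and with library totals (open diamonds). Oasl1 stands at 3.44, and the 10 genes in red and 3 in blue are those called with TMM factors. The diamonds lie to the right by about 0.25.

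Among the 6 genes of Isg15 and the ubiquitin or ADP-ribosyl systems, Parp14 alone was called, where 66.9% of all genes tested were called. Isg15 encodes the ubiquitin-like modifier itself. It had 4.90, 6.17, 9.78, 6.26 and 6.84 FPKM in IRI, against 5.46, 2.91, 3.64, 4.31 and 4.72 FPKM in Sham, so that IRI replicate 1 lay below Sham replicate 1 (0.44 ± 0.22, adjusted p = 0.0980). Usp18, the protease that removes Isg15 and dampens receptor signalling, had 1.29 ± 0.736 FPKM in IRI and 1.11 ± 0.283 in Sham (-0.02 ± 0.38). Trim25, the ubiquitin ligase that acts with RIG-I, had 16.5 ± 1.62 FPKM in IRI and 13.1 ± 1.82 in Sham (0.08 ± 0.12). Parp14, an ADP-ribosyltransferase, rose by 0.40 ± 0.14 (2.87 ± 0.645 FPKM in IRI and 1.82 ± 0.122 in Sham, adjusted p = 0.0204), and the call was lost without IRI replicate 5 (0.35, adjusted p = 0.0540). Parp9 and its partner ligase gene Dtx3l overlap head to head on opposite strands, and neither was called (0.11 ± 0.09 and -0.02 ± 0.14).

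Ifitm2 and Ifitm3, whose membrane proteins restrict viral entry, had the highest FPKM of the 37 in both groups. Ifitm3 had 111.24, 143.93, 148.20, 135.33 and 130.64 FPKM in IRI, against 50.13, 42.50, 53.92, 54.42 and 73.25 FPKM in Sham (1.03 ± 0.13, adjusted p = 1.92e-05). Ifitm2 had 150.15, 167.33, 153.76, 196.33 and 168.88 FPKM in IRI, against 71.20, 63.03, 79.35, 72.06 and 86.68 FPKM in Sham (0.92 ± 0.09, adjusted p = 4.99e-06). Both were higher in every IRI library than in any Sham library. These paralogs lie close together on chromosome 7 and are similar in sequence, so reads may be split between them. Bst2, which encodes tetherin, had 19.8 ± 4.09 FPKM in IRI and 17.3 ± 1.9 in Sham and was not called (-0.06 ± 0.14).

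None of the 6 genes of guanylate-binding proteins and immunity-related GTPases rose, and 1 fell. Of all genes tested, 34.5% were higher and 32.4% lower. The 6 genes, which interferon gamma induces in mice, encode GTPases that act on the vacuoles of pathogens. Igtp, which encodes Irgm3, had 5.41, 4.59, 6.80, 3.86 and 5.02 FPKM in IRI, against 7.12, 8.06, 7.20, 6.14 and 7.09 FPKM in Sham. It fell (-0.72 ± 0.16, adjusted p = 0.00173), with IRI replicate 3 above the lowest Sham library, and it overlaps Irgm2 on the same strand. Gbp2 (4.35 ± 0.692 FPKM in IRI and 3.76 ± 0.625 in Sham), Irgm1 (7.33 ± 0.967 in IRI and 6.80 ± 0.812 in Sham) and Iigp1 (3.27 ± 1.60 in IRI and 2.47 ± 0.403 in Sham) were not called. Neither were Gbp3 (2.52 ± 1.32 FPKM in IRI and 3.34 ± 0.989 in Sham, -0.65 ± 0.31) and Gbp7 (2.53 ± 0.934 in IRI and 2.68 ± 0.446 in Sham, -0.34 ± 0.22), but without IRI replicate 3 both were called lower, at -1.0 (adjusted p = 0.00545) and -0.57 (adjusted p = 0.00859).

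Of the remaining genes, Ifi44 had the largest fall and Ifi35 rose. Ifi44, a cytoplasmic protein gene with an antiproliferative role in human cells, had 1.13, 1.14, 2.18, 1.35 and 1.53 FPKM in IRI, against 2.38, 2.36, 3.64, 2.45 and 3.56 FPKM in Sham. The groups did not overlap (-1.22 ± 0.20, adjusted p = 0.000181). Ifi35, which encodes a partner of Nmi, had 12.07, 14.36, 14.62, 14.91 and 14.07 FPKM in IRI, against 8.69, 7.59, 8.61, 7.19 and 10.43 FPKM in Sham (0.47 ± 0.11, adjusted p = 0.00226). Xaf1, a binding partner of the apoptosis inhibitor XIAP, and Ifi27, a mitochondrial protein gene, were not called (0.35 ± 0.22 and 0.08 ± 0.11), although Xaf1 was called without IRI replicate 4 (0.50, adjusted p = 0.0248). Of the 21 genes above the filter that were not called, 18 had a 95% interval inside a 2-fold change in either direction, and the bounds of all 21 ran from -1.37 to 1.39.

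The IRI libraries were not alike in these genes. IRI replicate 3 was the highest IRI library in 26 of the 34 genes above the filter (76.5%), whereas it was highest in 25.0% of all genes tested. IRI replicate 2 was the lowest in 13 (38.2%) and IRI replicate 4 in 11 (32.4%), against 22.1% and 15.8% of all genes tested. Usp18 showed it most, with 0.41 FPKM in IRI replicate 2 and 2.36 in IRI replicate 3. Among the exceptions were Iigp1, highest in IRI replicate 1 at 6.04 FPKM, and Oasl1, lowest in IRI replicate 3. In Sham, replicate 5 was the highest library in 13 genes (38.2%) and replicate 1 the lowest in 15 (44.1%), against 26.5% and 15.4% of all genes tested. Genes of 1 library share its RNA and are not independent readings. Neutrophil marker levels summed to 27.1 FPKM in IRI replicate 3 and 47.3 to 118 in the other IRI libraries, and monocyte and macrophage markers to 130 in IRI replicate 3 and 103 to 168 in the others. The part of any cell type in this spread was not tested.

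**Figure D3:**
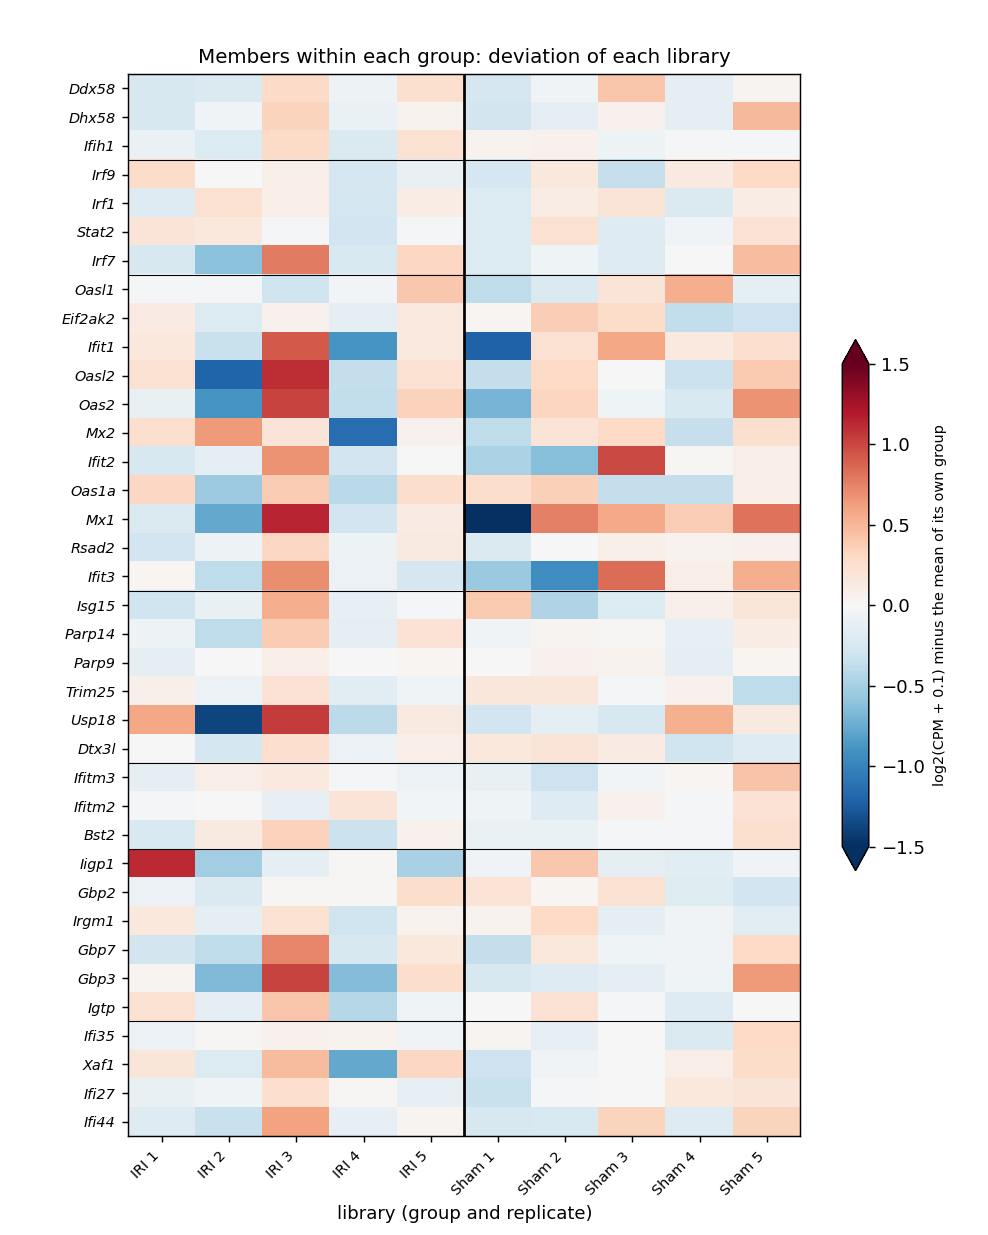
Deviation of each library from the mean of its own group, as log2(CPM + 0.1) with TMM factors, for the 37 genes (rows, by role) in the IRI libraries (left) and Sham libraries (right), with colours ending at 1.5 either way. The column of IRI replicate 3 is red in most rows, and IRI replicate 2 is blue in Usp18, Oasl2 and Oas2.

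Transcripts of the interferons themselves gave few counts. The 21 ligand genes examined had 20 counts in all IRI libraries together and 13 in all Sham libraries, and 15 of them had no count in any library. Ifnb1 had 1 count in IRI and 0 in Sham, and Ifng had 0 in IRI and 6 in Sham, where a count of 0 allows up to 3. Ifnab held 18 of the IRI counts and 3 of the Sham counts, and no ligand gene was called.

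Downstream of the ligands, most receptor and kinase genes rose. Of the receptor and JAK-STAT genes given here, 7 were higher and 3 were not called, where 34.5% of all genes tested were higher. Stat3, the factor of IL-6 family cytokines, rose by 2.24 ± 0.14, the type II receptor subunit gene Ifngr2 by 1.30 ± 0.11 and the type III receptor gene Ifnlr1 by 1.19 ± 0.15. Ifnar1 (0.68 ± 0.11) and Ifngr1 (0.67 ± 0.10) also rose, as did the kinase genes Jak1 (0.50 ± 0.12) and Jak2 (0.44 ± 0.11), while Ifnar2 (0.08 ± 0.09), Tyk2 (0.14 ± 0.08) and Il10rb (-0.10 ± 0.08) were not called.

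Upstream of interferon production, 8 of 13 sensing and adaptor genes were higher, 2 lower and 3 not called (median 0.52). Tmem173, which encodes STING, the adaptor of cytosolic DNA sensing, had 9.52 ± 2.01 FPKM in IRI and 1.27 ± 0.340 in Sham (SD, n = 5 each; 2.66 ± 0.22, adjusted p = 9.86e-07). Tlr4 (1.37 ± 0.26) and the adaptor gene Myd88 (1.26 ± 0.12) rose. Irf5 fell by 1.44 on the log2 scale, and Irf3, which drives interferon beta, fell by 0.41 with TMM factors but was not called with library totals (-0.16). Mavs (0.21 ± 0.12) and Trim56 (0.36 ± 0.16) were not called, the last of them being called without IRI replicate 2 (0.47) or Sham replicate 3 (0.46). Of 12 negative regulators, 4 rose, 2 fell and the other 6 were not called (median 0.02). Socs3 (5.29 ± 0.42) and Tnfaip3 (1.21 ± 0.20) rose, the phosphatase gene Ptpn6 (-0.81 ± 0.13) and the mitochondrial Nlrx1 (-0.96 ± 0.12) fell, and Irf2 (-0.20 ± 0.10) and Samhd1 (0.15 ± 0.09) were not called. Irf2 was called lower without IRI replicate 1 (-0.26, adjusted p = 0.0296). These lists together had 52.8% of 36 tested genes higher and 13.9% lower, beside the 34.5% and 32.4% of all genes tested. With library totals, 27 of the 36 were higher and 4 lower, against 47.4% and 23.6% of all genes tested, and the negative regulators gave 7 higher and 2 lower.

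A further list of 63 interferon-stimulated genes outside the 37 was read beside them. Of 43 that passed the filter, 14 were higher (32.6%), 10 lower (23.3%) and 19 not called (median 0.15), where 34.5% of all genes tested were higher and 32.4% lower. Slfn2 (1.24 ± 0.17) and Ifi207 (1.36 ± 0.25) rose. Samd9l, a restriction factor gene, had 14.3 ± 2.77 FPKM in IRI and 36.6 ± 4.43 in Sham (-1.61 ± 0.14, adjusted p = 1.3e-06), and Tgtp2, an immunity-related GTPase gene, fell by 1.45 on the log2 scale. Cxcl10, a chemokine gene that interferon gamma induces, had 4.34 ± 2.46 FPKM in IRI and 1.91 ± 0.842 in Sham and was not called (0.93 ± 0.44, adjusted p = 0.0784). Cxcl10 was called higher without IRI replicate 3 (1.13), IRI replicate 4 (1.13) or Sham replicate 2 (1.25). Ifi27l2a was not called (-0.75 ± 0.35), but without IRI replicate 3 it was called lower, at -1.25 (adjusted p = 0.000594). With no filter, 15 of the 63 were higher and 17 lower (median -0.02), where 19.3% and 18.0% of all genes with a count were higher and lower. Cxcl9 (-3.74 ± 0.40) and Gbp6 (-2.09 ± 0.30) were among the lower ones below the filter, and were picked after their values were seen.

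Markers of the cells that make or answer interferon moved too. Markers of T and NK cells, which make interferon gamma, summed to 2.04 to 3.19 FPKM in IRI and 5.25 to 8.08 in Sham, and 0 of 16 passed the filter. Dendritic cell markers without Bst2 summed to 18.5 to 35.7 FPKM in IRI and 62.2 to 89.2 in Sham. Most of that sum came from H2-Ab1 (8.72 ± 2.28 FPKM in IRI and 27.9 ± 4.07 in Sham) and H2-Eb1 (11.9 ± 3.62 in IRI and 38.1 ± 6.18 in Sham). With no filter, 6 of the 12 dendritic cell markers were called lower and 0 higher. Of all genes with a count, 19.3% were higher and 18.0% lower in that fit. Monocyte and macrophage markers had 5 of 17 higher and 3 lower in the same fit. Their sum was 103 to 168 FPKM in IRI and 59.1 to 89.8 in Sham, but without Cd14 and Cd68, left out after their values were seen, it was 41.6 to 112 in IRI and 55.2 to 84.6 in Sham, which overlap. The higher markers of that list were Cd14, Cd68, Itgam, Fcgr1 and Trem2, and the lower ones were Csf1r, Cx3cr1 and Ly6c2. Csf1r, the receptor gene of the macrophage growth factor, had 3.07 ± 0.945 FPKM in IRI and 11.1 ± 2.38 in Sham and was called lower. Itgam had 1.88 ± 0.609 FPKM in IRI and 0.176 ± 0.058 in Sham and was called higher. Neutrophil markers summed to 27.1 to 118 in IRI and 1.36 to 3.66 in Sham, endothelial markers to 184 to 290 in IRI and 143 to 198 in Sham, and B and plasma cell markers to 4.38 to 6.73 in IRI and 14.5 to 21.0 in Sham. Proximal tubule markers summed to 3174 to 11032 FPKM in IRI and 39886 to 56498 in Sham, and injured tubule markers to 18218 to 28851 in IRI and 396 to 439 in Sham. The sums of the neutrophil, T and NK cell, dendritic cell, B and plasma cell and tubule lists did not overlap between the groups, and those of the endothelial list did. The part of these cells in the values above was not tested.

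**Figure D4:**
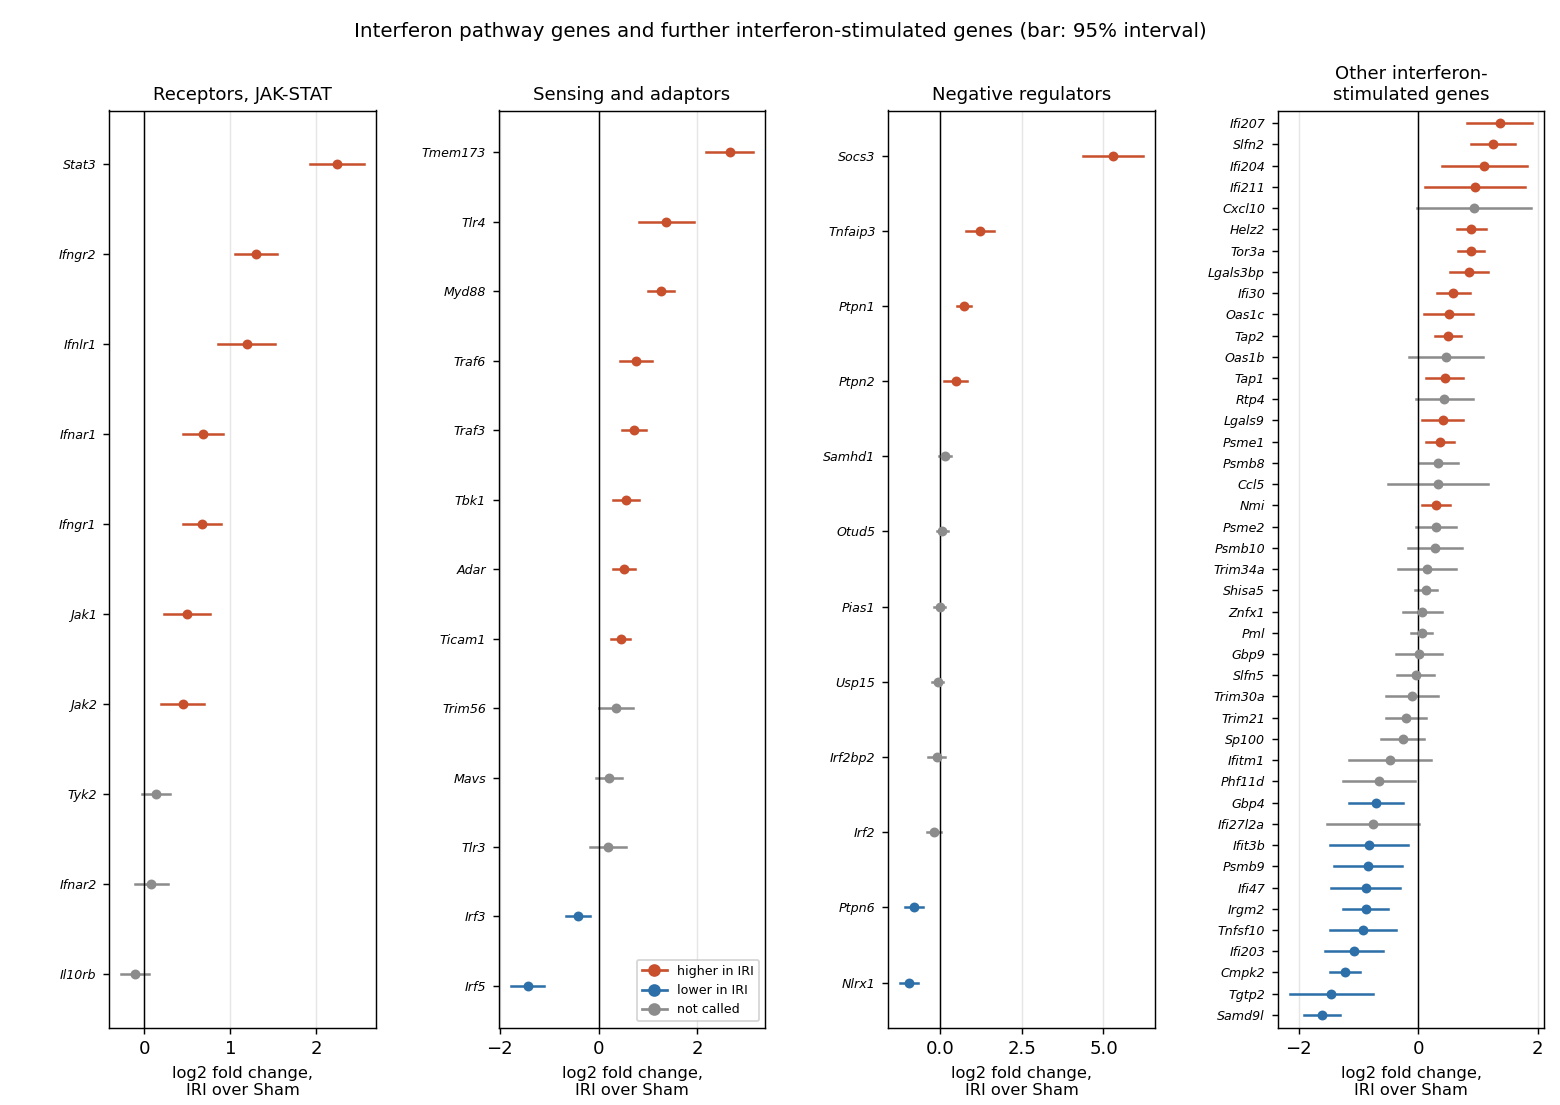
Log2 fold change of IRI over Sham with its 95% interval (edgeR, TMM factors) for the genes given here that passed the filter in 4 lists, each sorted by fold change, red for higher, blue for lower and grey for not called. Stat3 at 2.24 heads the first list, and the last list, of 43 further interferon-stimulated genes, spreads to both sides of 0.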

How the data were processed

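Poly(A) RNA-seq of kidney tissue in 5 IRI and 5 Sham libraries was used. The authors deposited 1 table of read counts per gene, FPKM and exonic length. Per the submitters' processing notes the tools were cutadapt 1.9.1, HISAT2 2.0.1 and HTSeq 0.6.1 with build GRCm39, and no source used here gives the strand setting of counting. The deposited FPKM values equalled the count per length per library total within 0.005 in 100% of cases. Symbols were matched for 52083 of 55359 identifiers.

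Counts of genes with at least 1 FPKM in 5 libraries were tested with edgeR 4.0.16 (R 4.3.3; quasi-likelihood test, TMM factors, all 10 libraries, Benjamini-Hochberg adjustment over all genes tested, threshold 0.05). The SE was the absolute log2 fold change over the square root of the F statistic, and intervals are 95%. Alternatives were no filter, edgeR's own filter, other size factors, library totals, DESeq2 1.42.0, limma 3.58.1 on log2(FPKM + 1) and log2(FPKM + 0.1), a replicate block and leaving out each library. The scripts were tested on simulated data. No 2 libraries agreed within counting noise (lowest chi-square per degree of freedom 8.99).

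Any of the 37 genes could be named, with values in every library for the called genes of largest change, the transcription factors and the sensors (the values of Oasl2 and Isg15 were added after they were seen). From other lists, up to 4 called genes of largest change, 2 uncalled ones and a few fixed signalling genes were named, and others were added to these. Of the genes counted in the lists, 1 is not reported here. The genes and lists were chosen with earlier results of these data known.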

Additional observations from a re-analysis of the deposited data

Results flagged for a closer look

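In 6 of 74 checks, each of 1 gene in the 5 libraries of a group, a single library lay far from the other 4, where chance gives about 1 in 20 such checks. Ifit3 was 14.73 FPKM in IRI replicate 3, above the other IRI libraries. Iigp1 was 6.04 FPKM in IRI replicate 1, above the other IRI libraries, and 3.18 FPKM in Sham replicate 2, above the other Sham libraries. Parp9 was 4.23 FPKM in IRI replicate 1, below the other IRI libraries. Gbp3 was 5.09 FPKM and Irf7 4.61 FPKM in Sham replicate 5, each above the other Sham libraries. None of these 5 genes was called, and IRI replicate 1 is the library with 2.31% of its counts in mitochondrial rRNA.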

How the results depend on the processing

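The 13 called genes kept their direction and call under every alternative run, except Parp14 without IRI replicate 5. Among genes not called, 12 of the 37 changed sign under some alternative, by at most 0.25 in the new direction with library totals. The count of higher genes was 10, against 18 with library totals and 17 with limma at either pseudocount, or 16 with no filter and a pseudocount of 0.1. Of all genes tested, 34.5% were higher with TMM factors and 47.4% with library totals, and their share with limma is not given here. Leaving out each library gave 9 to 11 higher and 3 to 6 lower genes (9 to 12 and 3 to 6 with no filter), the 6 being without IRI replicate 3. DESeq2 gave 5 lower genes, adding Gbp3 and Ifit3.

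Of the 43 other interferon-stimulated genes above the filter, 22 were higher and 6 lower with library totals, against 47.4% and 23.6% of all genes tested. With no filter, 17 of the 63 were lower, against 18.0% of all genes with a count. With edgeR's own filter 16 were lower, and the share over all genes is not given here. The fit with no filter included genes that the filter left out, and of these Gbp5, Gbp6, Gbp8, Gbp10 and Tgtp1 were among those called lower. The fit with library totals differed from that with TMM factors in scaling only, and which scaling is nearer the true amounts was not tested. Among all genes tested, leaving out each library gave 4352 to 4682 higher and 4044 to 4410 lower.

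The replicate numbers did not pair the libraries. Correlations of same-numbered libraries ran from -0.247 to 0.0567, and no library correlated best with its own number. With the replicate block, 10 of the genes were higher and 5 lower, with or without the filter. Oas2, Mx1, Mx2 and the ligand genes lay below the filter, so depth limits what can be said of them.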
